A study of Mus musculus with 11 samples.

Results

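The genes described are those of the chaperone HSP90, of 5 proteins that work with it, and of the mitochondrial chaperonin. They were taken by symbol: Hsp90aa1, Hsp90ab1, Trap1, Ahsa1, Chordc1, Stip1, Cdc37, Fkbp4, Hspd1 and Hspe1, which make 10 of the 48709 genes in the count table, and all 10 passed the filter on low counts. They were measured by RNA sequencing in muscle stem cells (satellite cells) of C57BL/6 mice. Every group carried the transgene Tg:Pax7-nGFP, a nuclear green fluorescent protein driven by Pax7, so a cell that does not drive Pax7 would not be marked. Every group drew on pectoral, forelimb and hindlimb muscle together. In T0 (3 libraries) the muscle itself was fixed in 0.5% paraformaldehyde for 1 h at 4°C, before the tissue was taken apart. In T3 (4 libraries) cells were isolated and sorted by the standard route and then fixed in 0.5% paraformaldehyde for 30 min on ice. T5 (4 libraries) was fixed like T3 and had 2 h more at 37°C, which the sample labels place before the isolation, in dissected muscle, and the series description after it. What was fixed, whole muscle or sorted cells, changes together with the isolation, and the effects of both cannot be told apart.

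HSP90 is an ATP-driven chaperone that holds kinases, steroid receptors and other clients in a form that can be activated. Co-chaperones decide which client arrives and how fast HSP90 turns over ATP, and the genes of many chaperones are read by the heat shock factor HSF1 through heat shock elements, runs of the units GAA and TTC. In mitochondria the HSP90 relative TRAP1 and the barrel-shaped chaperonin of HSP60 with its lid HSP10 fold imported proteins.

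The T0 libraries held 49078859 to 67251946 counts, the T3 libraries 52632553 to 72638711 and the T5 libraries 61837170 to 102347035. Ribosomal RNA genes made up 4.14 to 18.3% (T0), 6.45 to 12.6% (T3) and 12 to 20.3% (T5) of these. The labels do not state whether each library stands for its own animals, and the p-values therefore measure the spread between these libraries, which may be technical. T5 libraries that share a letter (A5 with A6, B5 with B6) were added up for the tests, which leaves 2 T5 replicates. Library 3 of T0 had the lowest T0 level for 10 of the 10 genes. Library A5 of T5 had the highest T5 level for 8 of the 10 genes. Levels are in CPM, counts relative to the library's total, scaled by TMM factors over the 11 libraries, and T5 means are taken over the letters, each the mean of its pair of libraries. Changes are log2 fold changes ± SE by edgeR's quasi-likelihood test, and each p was adjusted (Benjamini-Hochberg) over all 31999 genes that passed the filter. A gene is called higher or lower where the adjusted p is under 0.05. When upper quartile factors were used for scaling, lower genes were 44.7% of the calls instead of 60.4% in T3 against T0 and 44.1% instead of 62.9% in T5 against T0. They were 50.6% instead of 40.9% in T5 against T3, and 67.3% there with DESeq2. The median change of all genes then went from 0.05 to 0.32 in T3 against T0 and from 0.18 to 0.505 in T5 against T0.

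The promoters of these genes show where heat shock element letters stand. RefSeq promoter windows (GRCm38.p6, from 250 bases before to 50 after a gene's start) were at hand for 8 of the 10 genes, and Hspd1 had 2 starts. Hsp90aa1 and Hsp90ab1 had no window, and their promoters were not searched. The search was for units GAA and TTC in turn with 2 bases between them, on both strands: GAANNTTC or TTCNNGAA for 2 units, GAANNTTCNNGAA or TTCNNGAANNTTC for 3, with longer runs holding the shorter ones. The stretches below are shown because they hold the runs, which are in capitals, and each is written 5′ to 3′ on the gene's own strand. Hspd1 and Hspe1 lie head to head on chromosome 1, and a single run of 4 units at chr1:55088053-55088082 stands in the windows of both, read here once on each strand. The Chordc1 stretch is chr9:18292260-18292289 on the plus strand, the Fkbp4 stretch is chr6:128438789-128438818 and the Cdc37 stretch is chr9:21150086-21150115, both on the minus strand.
Hspe1: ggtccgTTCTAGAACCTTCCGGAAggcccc
Hspd1: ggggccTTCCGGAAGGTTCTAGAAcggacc
Chordc1: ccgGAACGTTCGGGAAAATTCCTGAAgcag
Fkbp4: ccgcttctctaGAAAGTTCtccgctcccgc
Cdc37: tcggcgggaacTTCCAGAAggcctcaccac

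Runs of 2 or more units stood in 15.1% of the 32851 windows of all genes, runs of 3 or more in 0.603% and runs of 4 or more in 0.0244% (8 windows). The Chordc1 window was the single one of the 32851 with 5 units. Its run begins 4 bases before the RefSeq start (18292267) and reaches past it, inside the gene as GENCODE vM21 places it (from 18292125). The run of Hspe1 begins 89 bases before its start. That of Hspd1 begins 144 bases before 1 of its 2 annotated starts (55087932) and lies downstream of the other (55088243). Chordc1 has a further pair of units from base 34 after its start. In Fkbp4 and Cdc37 the 2 units begin 151 and 170 bases before the start. No such letters were found in the windows of Trap1, Ahsa1 and Stip1. The Ahsa1 window is set on a RefSeq start at 87266728, inside the gene as GENCODE vM21 places it (from 87266479). Bases before that GENCODE start were therefore hardly searched. These are matches of letters, and binding was not measured.

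**Figure D1:**
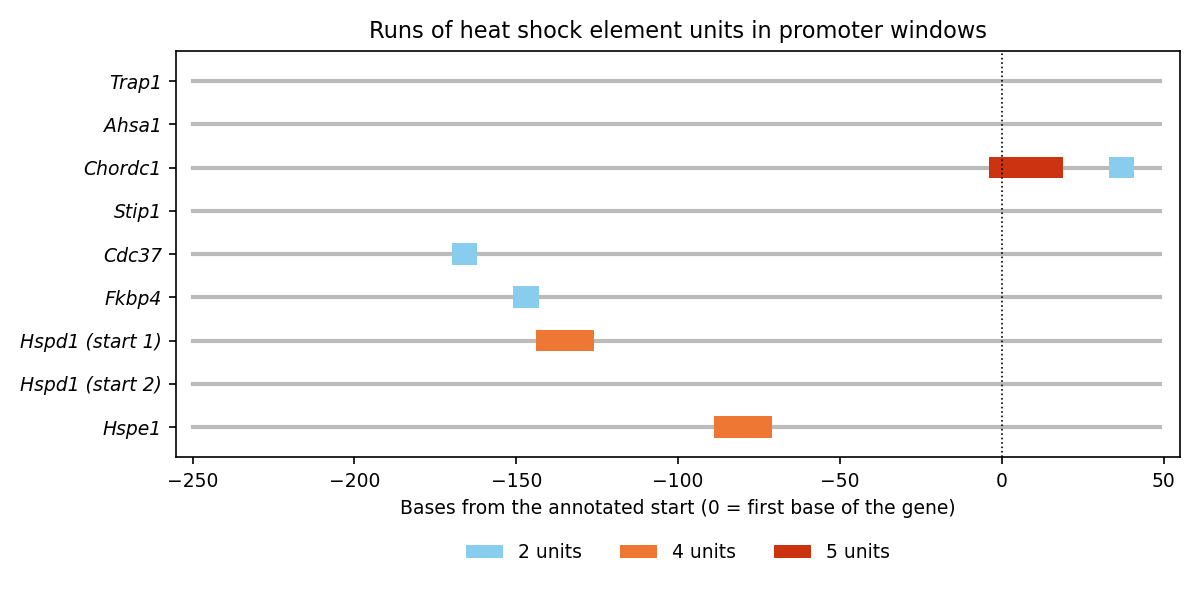
Positions of runs of heat shock element units (bars, coloured by the number of units) in the promoter windows of 8 genes, in bases from the annotated start. Hsp90aa1 and Hsp90ab1 had no window and are not shown. Runs of 4 or 5 units stand in the windows of Chordc1, Hspe1 and 1 of the 2 starts of Hspd1, and the windows of Trap1, Ahsa1 and Stip1 hold none.

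In T3 against T0, 4 of the 10 genes rose, where 15% of all genes tested were called higher, and 1 fell, where 22.9% were called lower. Hsp90aa1, Stip1, Hspd1 and Hsp90ab1 rose and Fkbp4 fell. The median log2 fold change was 0.41 over the 10 genes and 0.05 over all genes. In T5 against T3, 3 of the 10 rose (1.28% of all genes were called higher) and none fell (0.888% were called lower): Hspe1, Hspd1 and Hsp90aa1. DESeq2 called 2 higher and 1, Trap1, lower. At an unadjusted p under 0.05 in edgeR 6 were higher and 1 was lower. The count moved with the settings: 6 rose with upper quartile factors and with the 4 T5 libraries taken singly, and 7 with T3 and T5 fitted alone. Leaving out T0 replicate 3, a library of neither group, also gave 6. Only 2 rose with DESeq2's size factors in edgeR, without T3 replicate 1, 2 or 3, and without T5 library A5. The median was 0.67 over the 10 and 0.05 over all genes. In T5 against T0, 6 rose (13.2% of all genes were called higher) and 1, Trap1, fell (22.5% were called lower). T5 against T3 shares libraries with each of the other comparisons.

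**Figure D2:**
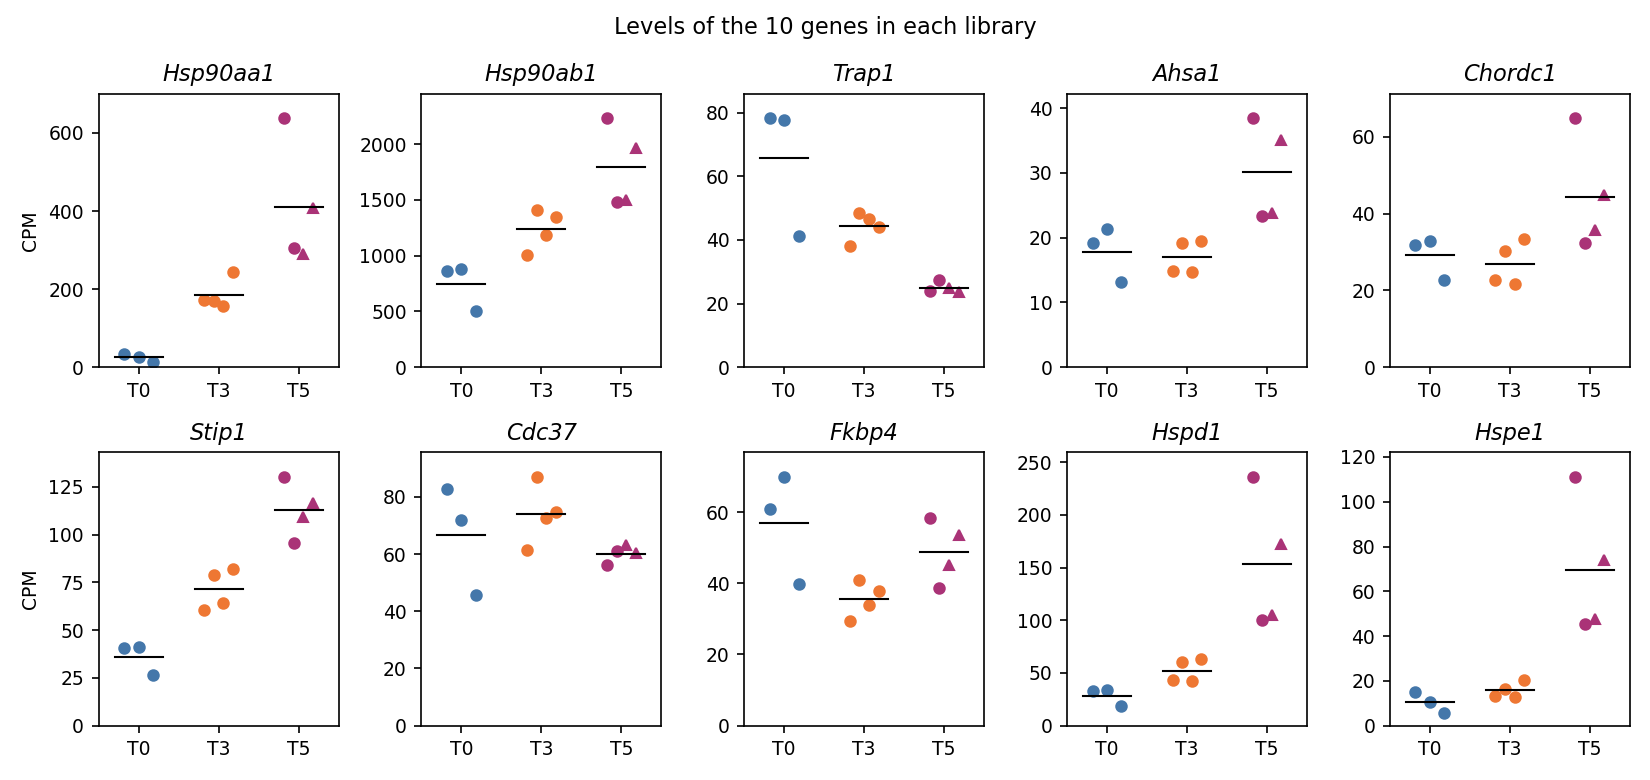
CPM of each of the 10 genes in the 3 T0, 4 T3 and 4 T5 libraries, 1 point a library (T5 letter A as circles, letter B as triangles), with the group mean as a line. Hsp90aa1 goes from 14.2 to 33.7 CPM in T0 to 291 to 637 CPM in T5, while Trap1 goes down and Cdc37 keeps overlapping ranges.

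Cytosolic HSP90 comes from a pair of genes, Hsp90aa1, which stress induces, and Hsp90ab1, which cells make steadily. Hsp90aa1 (ENSMUSG00000021270.13, GRCm38 chromosome 12, 110690605 to 110702728) stood at 33.7, 26.8 and 14.2 CPM in T0 libraries 1 to 3, at 172, 171, 155 and 245 CPM in T3 libraries 1 to 4, and at 637, 307, 291 and 408 CPM in T5 libraries A5, A6, B5 and B6. All T3 libraries lay above all T0 libraries, and all T5 libraries above all T3 libraries. The change from T0 to T3 was 7.66-fold (log2 2.94 ± 0.29, adjusted p = 3.07e-08) and that from T3 to T5 was 2.19-fold (log2 1.13 ± 0.28, adjusted p = 0.0312). The second of these calls was lost with smaller values without library A5 (log2 0.79, adjusted p = 0.138), without letter A (0.88, adjusted p = 0.632) and with T5 libraries numbered 6 alone (0.94, adjusted p = 0.0816). It was lost at about the same or a larger size without T3 replicate 1 (log2 1.09, adjusted p = 0.0886), 2 (1.1, 0.0808) or 3 (1.06, 0.0842) and without letter B (1.35, 0.0799). DESeq2's size factors in edgeR (1.02, 0.139) and DESeq2 (1.01, 0.0683) also ended it.

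Hsp90ab1 (ENSMUSG00000023944.14, chromosome 17, 45567775 to 45573271) was the most abundant of the 10 in every library. It stood at 859, 877 and 502 CPM in T0, at 1005, 1408, 1188 and 1347.5 CPM in T3 and at 2232, 1483, 1501 and 1964 CPM in T5. The groups do not overlap, although the lowest T5 library lies close above the highest T3 library. It rose 1.70-fold in T3 against T0 (log2 0.77 ± 0.24, adjusted p = 0.0132) and was 1.43-fold higher in T5 than in T3 without a call (log2 0.52 ± 0.26, 95% interval −0.03 to 1.06, adjusted p = 0.421). Against T0 the T5 level was called, at 2.435-fold (log2 1.28 ± 0.28, adjusted p = 0.000765).

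Within the pair, the share of Hsp90aa1 was lowest in T0. Per kilobase of annotated exon, Hsp90aa1 made up 2.9, 2.28 and 2.11% of the sum of the pair in T0, 11.5, 8.46, 9.08 and 12.2% in T3, and 17.9, 13.6, 12.9 and 13.7% in T5. Within a library this share needs no scaling between libraries. The log2 ratio of Hsp90aa1 to Hsp90ab1 went from −5.34 ± 0.25 in T0 (SD, n = 3) to −3.14 ± 0.29 in T3 (SD, n = 4), a difference of 2.20. An exact permutation test, two-sided, gave p = 0.0571, which is the smallest that 3 against 4 libraries allow. In T5 the log2 ratio was −2.57 ± 0.20 (SD, n = 2).

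**Figure D3:**
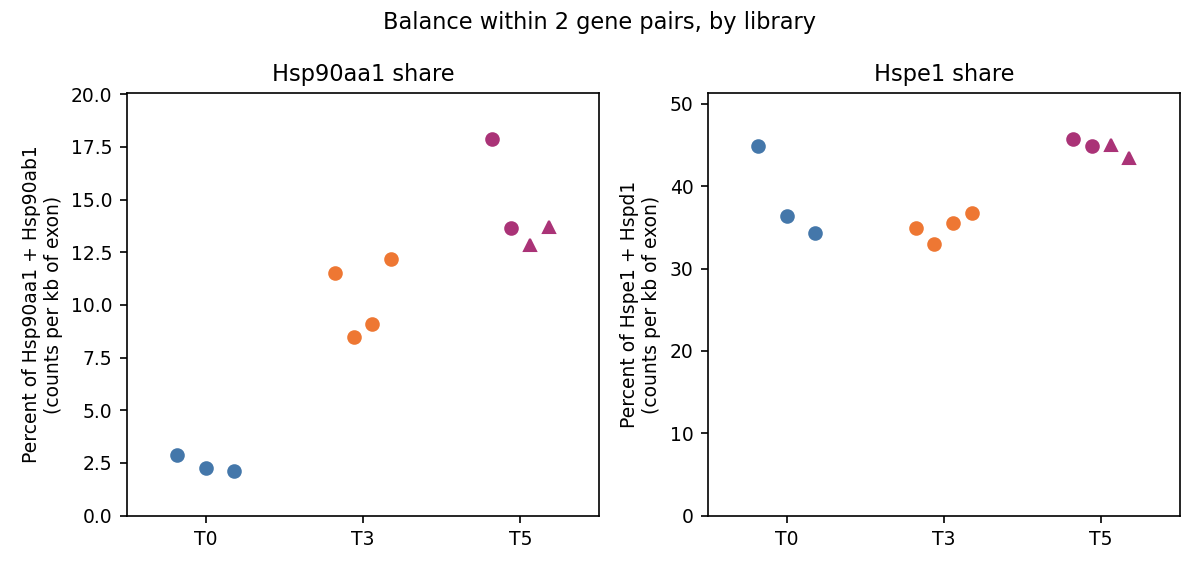
Share of Hsp90aa1 in the sum of Hsp90aa1 and Hsp90ab1 (left) and of Hspe1 in the sum of Hspe1 and Hspd1 (right), in percent of counts per kilobase of exon, 1 point a library. The left share is 2.11 to 2.9% in T0 and 8.46 to 17.9% in the other libraries, while in the right panel T0 library 1 lies with the T5 libraries at 43.5 to 45.8%.

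Trap1, the mitochondrial HSP90, was lower in T5 than in T0. Trap1 (ENSMUSG00000005981.11, chromosome 16, 4039971 to 4077827) stood at 78.2, 77.8 and 41.3 CPM in T0, at 38.1, 48.4, 46.6 and 44 CPM in T3 and at 24.1, 27.3, 24.8 and 23.5 CPM in T5. T0 library 3 fell among the T3 libraries, and all T5 libraries lay below all others. The difference of T3 from T0 was not called (log2 −0.53 ± 0.22, adjusted p = 0.0597) and was called without T0 replicate 3 (log2 −0.78, adjusted p = 0.000243), without ribosomal RNA genes (0.0424) and with T5 libraries taken singly (0.026). T5 was lower than T3 without a call (log2 −0.85 ± 0.26, adjusted p = 0.102), and the adjusted p was under 0.05 in 7 other settings, such as DESeq2 (0.0341). From T0 to T5 Trap1 fell by 1.38 ± 0.28 on the log2 scale (adjusted p = 0.000341). The gene overlaps Dnase1 by 54 bases and holds a predicted microRNA gene and a pseudogene, and reads of overlapping genes may be shared.

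Stip1, also known as HOP, hands clients from HSP70 to HSP90. Stip1 (ENSMUSG00000024966.8, chromosome 19, 7020702 to 7039967) stood at 40.6, 41.1 and 26.3 CPM in T0, at 60.6, 79.1, 64.4 and 81.8 CPM in T3 and at 130, 95.3, 109 and 116 CPM in T5. The 3 groups form 3 separate ranges. It rose 2.04-fold in T3 against T0 (log2 1.03 ± 0.215, adjusted p = 0.000449) and 3.19-fold in T5 against T0 (log2 1.67 ± 0.25, adjusted p = 1.27e-05). T5 was 1.56-fold above T3 without a call (log2 0.64 ± 0.23, adjusted p = 0.196). It was called there with upper quartile factors (0.0253), single T5 libraries (0.03), T3 and T5 fitted alone (0.0105) and without T0 replicate 3 (0.0188).

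Ahsa1, or AHA1, speeds up the ATPase of HSP90. Ahsa1 (ENSMUSG00000021037.6, chromosome 12, 87266479 to 87273998) stood at 19.2, 21.3 and 13.1 CPM in T0, at 14.8, 19.1, 14.7 and 19.4 CPM in T3 and at 38.4, 23.3, 23.8 and 35.1 CPM in T5. T0 and T3 covered the same range and T5 lay above both. The difference of T3 from T0 had an interval of −0.47 to 0.41 on the log2 scale (adjusted p = 0.93). T5 against T3 was 1.745-fold without a call (log2 0.80 ± 0.23, adjusted p = 0.0792), and the adjusted p was under 0.05 in 6 other settings, such as T3 and T5 fitted alone (0.00385). Against T0 it rose 1.71-fold (log2 0.77 ± 0.25, adjusted p = 0.0174), a call lost without library A5 (0.0897), without letter A (0.136) or B (0.0899), with DESeq2's size factors in edgeR (0.0703) and with DESeq2 (0.0679). A predicted microRNA gene, Gm47293, lies within Ahsa1.

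Chordc1, a zinc-binding protein of the CHORD family, binds the ATPase domain of HSP90. Chordc1 (ENSMUSG00000001774.7, chromosome 9, 18292125 to 18317442) stood at 31.7, 32.9 and 22.7 CPM in T0, at 22.7, 30.2, 21.7 and 33.3 CPM in T3 and at 64.8, 32.3, 35.6 and 44.7 CPM in T5. The T5 library A6 lay within the range of T3, and T0 and T3 overlapped. The log2 difference was −0.07 ± 0.215 in T3 against T0 (adjusted p = 0.831), 0.71 ± 0.24 in T5 against T3 (adjusted p = 0.153) and 0.63 ± 0.25 in T5 against T0 (adjusted p = 0.0554), none of them called. In T5 against T3 it was called with upper quartile factors (0.0447), single T5 libraries (0.0439), T3 and T5 fitted alone (0.0182) and without T0 replicate 3 (0.0298), and in T5 against T0 in 4 settings, such as upper quartile factors (0.00117). A pseudogene, Gm19178, lies within it on the other strand.

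Fkbp4, or FKBP52, is a peptidyl-prolyl isomerase that joins HSP90 on steroid receptors. Fkbp4 (ENSMUSG00000030357.10, chromosome 6, 128429735 to 128438677) stood at 60.8, 69.9 and 39.7 CPM in T0, at 29.3, 40.9, 33.8 and 37.7 CPM in T3 and at 58.3, 38.7, 45 and 53.4 CPM in T5. T0 library 3 lay just below the highest T3 library, and T5 overlapped both other groups. It fell by 0.64 ± 0.21 on the log2 scale in T3 against T0 (adjusted p = 0.0188), a call lost when T0 replicate 2 (0.17) or T3 replicate 1 (0.0722) was left out and when upper quartile factors were used (0.0877). With T0 and T3 blocked by column number it was lost too (0.0825). T5 was higher than T3 without a call (log2 0.45 ± 0.24, adjusted p = 0.444), and its difference from T0 had an interval of −0.73 to 0.34. With T3 and T5 fitted alone Fkbp4 was called higher in T5 (log2 0.48, adjusted p = 0.049).

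Cdc37 brings kinases to HSP90. Cdc37 (ENSMUSG00000019471.9, chromosome 9, 21133222 to 21149982) stood at 82.8, 71.8 and 45.6 CPM in T0, at 61.5, 87, 72.4 and 74.6 CPM in T3 and at 56.1, 60.9, 63.3 and 60.2 CPM in T5. The 3 ranges overlapped. The 95% intervals of its log2 changes were −0.27 to 0.64 in T3 against T0, −0.83 to 0.20 in T5 against T3 and −0.67 to 0.41 in T5 against T0, with adjusted p of 0.564, 0.626 and 0.712. With upper quartile factors Cdc37 was called higher in T3 against T0 (log2 0.515, adjusted p = 0.00861).

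The chaperonin genes had the 2 largest log2 fold changes of the 10 in T5 against T3. Hspd1 (HSP60; ENSMUSG00000025980.14, chromosome 1, 55077835 to 55088243) stood at 33, 33.6 and 19.1 CPM in T0, at 43.7, 60.5, 41.9 and 62.9 CPM in T3 and at 236, 100, 105 and 172 CPM in T5. The 3 groups do not overlap. It rose 1.88-fold in T3 against T0 (log2 0.91 ± 0.24, adjusted p = 0.00326) and 2.90-fold in T5 against T3 (log2 1.54 ± 0.25, adjusted p = 0.000827). From T0 to T5 it rose 5.44-fold (log2 2.445 ± 0.275, adjusted p = 5.03e-07).

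Hspe1 (HSP10; ENSMUSG00000073676.4, chromosome 1, 55088132 to 55091307) stood at 15, 10.7 and 5.57 CPM in T0, at 13.1, 16.6, 12.9 and 20.4 CPM in T3 and at 111, 45.5, 47.8 and 73.9 CPM in T5. T0 library 1 lay within the T3 range, and every T5 library was above every other library. The difference of T3 from T0 was not called (log2 0.63 ± 0.27, adjusted p = 0.0682), and it was called without T0 replicate 1 (0.00404), with upper quartile factors (0.00455) and without the filter (0.0264). In T5 against T3 it rose 4.38-fold (log2 2.13 ± 0.285, adjusted p = 7.32e-05), and in T5 against T0 6.80-fold (log2 2.765 ± 0.316, adjusted p = 6.17e-07). Without library A5 the log2 changes in T5 against T3 were 1.72 for Hspe1 and 1.15 for Hspd1, with adjusted p of 0.000804 and 0.00921.

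Hspd1 and Hspe1 share 112 annotated bases at their head-to-head starts, and both have processed pseudogenes in the count table. Counts of the Hspd1 pseudogenes added up to 3.11 to 7.88% of those of Hspd1. For Hspe1 they came to 14.1 to 31% (T0), 5.52 to 7.02% (T3) and 1.05 to 2.06% (T5), the highest share in T0, where Hspe1 was lowest. How the authors' counting split such reads is not given in the sources used here. The share of Hspe1 in the pair, per kilobase of exon, was 44.9, 36.4 and 34.3% in the T0 libraries, 32.9 to 36.8% in those of T3 and 43.5 to 45.8% in those of T5. The log2 ratio of Hspe1 to Hspd1 was −0.68 ± 0.34 in T0 (SD, n = 3), −0.89 ± 0.10 in T3 (SD, n = 4) and −0.30 ± 0.05 in T5 (SD, n = 2). T3 and T0 did not differ beyond their spread (exact permutation test, two-sided, p = 0.4).

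**Figure D4:**
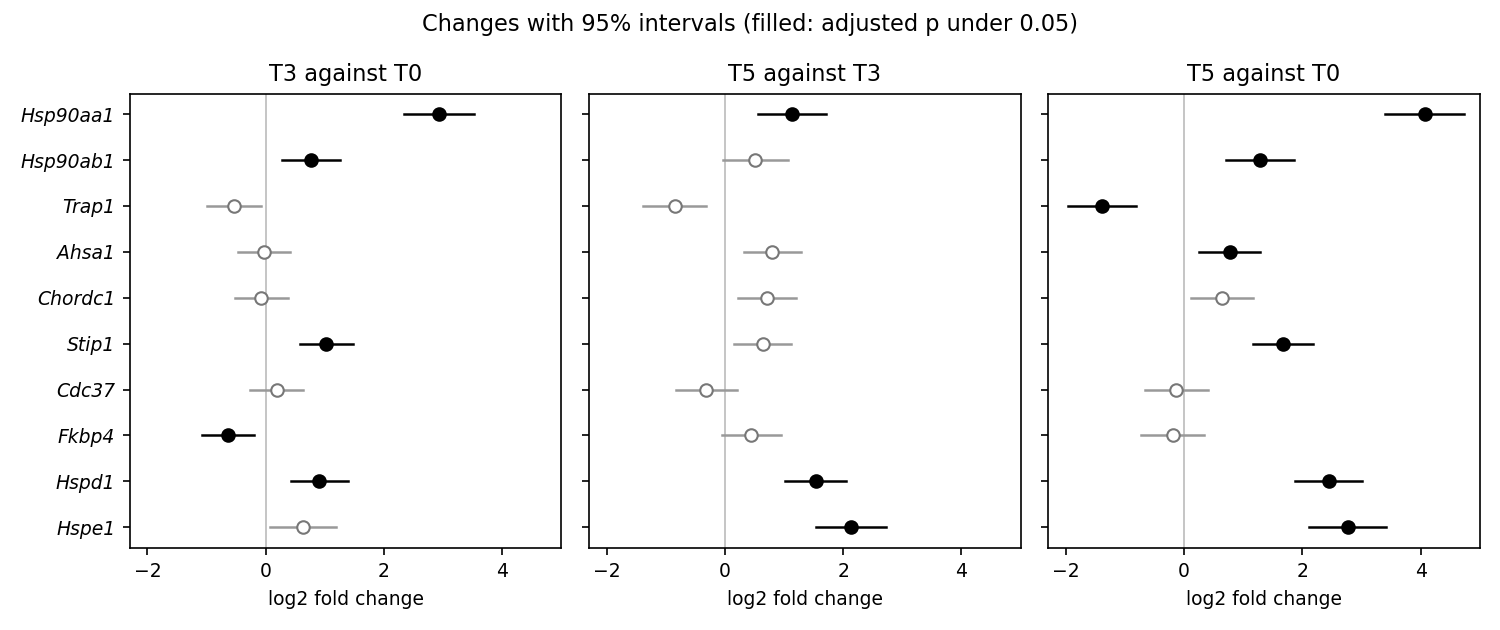
Log2 fold changes of the 10 genes in the 3 comparisons with 95% intervals, filled where the adjusted p was under 0.05. Hsp90aa1 and Hspd1 are filled in all 3 panels, Trap1 lies left of 0 in all 3, and the intervals of Cdc37 include 0 in all 3.

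Spread within T5 was itself uneven across the genes. Library A5 held 2.44 times the CPM of A6 for Hspe1, 2.36 times for Hspd1, 2.08 times for Hsp90aa1 and 2.01 times for Chordc1. Library B6 held 1.55 times the CPM of B5 for Hspe1 and 1.65 times for Hspd1. For Trap1 the same ratios were 0.881 and 0.95, and for Cdc37 0.921 and 0.952. For every gene of the set, A5 and A6 differed more than the means of the letters did, and the SD over the 2 letters does not show that spread.

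Levels per kilobase of exon put the genes in a different order in each group. In T0 the mean was 249 ± 70.6 CPM per kb for Hsp90ab1, followed by Trap1 at 25.6 ± 8.23, Fkbp4 at 20.3 ± 5.53, Stip1 at 17.1 ± 3.98 and Hspd1 at 10.8 ± 3.11 (SD, n = 3). Cdc37 (8.14 ± 2.33), Hspe1 (7.08 ± 3.21), Hsp90aa1 (6.33 ± 2.52), Ahsa1 (4.08 ± 0.971) and Chordc1 (3.88 ± 0.74) came last. From Trap1 down, neighbours in this order lay within the larger of their SDs except Stip1 and Hspd1. In T3 Hsp90ab1 (413 ± 60.2) was followed by Hsp90aa1 (47.2 ± 10.2), Stip1 (33.9 ± 4.99), Hspd1 (19.8 ± 4.16), Trap1 (17.2 ± 1.74) and Fkbp4 (12.7 ± 1.79) (SD, n = 4). Then came Hspe1 (10.7 ± 2.4), Cdc37 (9.01 ± 1.28), Ahsa1 (3.89 ± 0.596) and Chordc1 (3.6 ± 0.76). There Hspd1 and Trap1, the run from Fkbp4 over Hspe1 to Cdc37, and Ahsa1 and Chordc1 lay within the larger SD of each pair of neighbours. In T5 Hsp90ab1 (598 ± 29.3) was followed by Hsp90aa1 (104 ± 22), Hspd1 (58 ± 7.88), Stip1 (53.5 ± 0.00758) and Hspe1 (47.2 ± 8.38) (SD, n = 2). Fkbp4 (17.5 ± 0.183), Trap1 (9.68 ± 0.422), Cdc37 (7.34 ± 0.278), Ahsa1 (6.89 ± 0.227) and Chordc1 (5.91 ± 0.79) followed. Hsp90aa1 was the eighth in T0 and the second in T3 and T5. In T5 Stip1 lay within the larger SD of its neighbours on both sides, Hspd1 and Hspe1, which are themselves further apart than that. Single T5 libraries ranged wider than these SDs, from 45.2 (A6) to 61.8 (A5) CPM per kb for Stip1. For Fkbp4 they ranged from 13.9 (A6) to 20.9 (A5), so the T5 order of close neighbours is less sure than the SDs show. Annotated exons of all transcripts were used as length, and the transcripts these cells make may be shorter.

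Among 31 other isoforms and partners of HSP90, 6 rose and 7 fell in T3 against T0, with a median log2 change of −0.06, against 0.05 over all genes. These counts are near the background of 15% higher and 22.9% lower. Ptges3, which encodes the co-chaperone p23, went from a mean of 33.2 to 76 CPM (log2 1.23 ± 0.23, adjusted p = 0.00014). Unc45a, a myosin chaperone gene (log2 0.94 ± 0.22, adjusted p = 0.00126), and Ruvbl1, an ATPase of the R2TP complex (log2 0.94 ± 0.20, adjusted p = 0.000662), rose too, as did Ppid, Fnip1 and Fnip2. Ttc4, a co-chaperone with the repeat that binds the tail of HSP90, fell by 1.09 ± 0.21 on the log2 scale (adjusted p = 0.000229), Nudcd2 by 1.17 ± 0.22 (adjusted p = 0.000114) and Pih1d1, of R2TP, by 1.16 ± 0.225 (adjusted p = 0.000189). Pih1d1 overlaps Aldh16a1, and Aarsd1, which also fell (adjusted p = 0.0482), overlaps a predicted gene.

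In T5 against T3, 2 of the 31 partners rose and 1, Aarsd1, fell, with a median log2 change of −0.34, beside 1.28% higher and 0.888% lower of all genes. Hsp90b1, the HSP90 of the endoplasmic reticulum, stood at means of 216 CPM in T0 and 211 CPM in T3 and at 810 CPM in T5. Its log2 change was 0.01 ± 0.21 in T3 against T0 (adjusted p = 0.981) and 1.93 ± 0.23 in T5 against T3 (adjusted p = 1.4e-05). It overlaps predicted genes. Cacybp, which encodes a partner of the ubiquitin ligase SIAH1, had means of 15.2 CPM (T3) and 32 CPM (T5) and rose by 1.06 ± 0.24 on the log2 scale (adjusted p = 0.0173). Of the 4 HSP90 genes, Hsp90aa1 was called in T3 against T0 and in T5 against T3, Hsp90ab1 in the first of these, Hsp90b1 in the second and Trap1 in neither. Whether the genes or the steps differ from each other was not tested.

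Among 31 heat shock factor, HSP70, DNAJ and small heat shock genes 18 rose and 3 fell in T3 against T0, with a median log2 change of 0.998, beside 15% and 22.9% of all genes. Between T5 and T3 edgeR called 10 higher and none lower, with a median of 0.40, beside 1.28% and 0.888% of all genes. At an unadjusted p under 0.05, 2 were lower, and DESeq2 called none lower. Hspa1a and Hspa1b, near-identical inducible HSP70 genes whose reads cannot be told apart with certainty, went from means of 1.38 and 1.25 CPM in T0 to 54.7 and 50.7 CPM in T3 and 527 and 534 CPM in T5. Bag3, a co-chaperone gene of HSP70, rose in T3 (log2 2.555 ± 0.248, adjusted p = 2.95e-08), and so did Hspa2, a further HSP70 gene (log2 2.40 ± 0.255, adjusted p = 9.42e-08). Hsf4, Hspb2 and Hspa14 were the 3 that fell, Hspb2 and Hsf4 at levels under 4 CPM, and Hspb2 overlaps Cryab.

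A list of mitochondrial genes was set beside HSP60 and HSP10. Of 20 genes of the mitochondrial HSP70 system, import motor and proteases 4 rose and 6 fell in T3 against T0 (median 0.0007), where 15% of all genes rose and 22.9% fell. None was called by edgeR or by DESeq2 in T5 against T3 (median −0.16), and 1 was higher and 4 were lower at an unadjusted p under 0.05. With 1.28% of all genes called higher and 0.888% lower there, no call in a list of this size is near the background. Hspa9, the HSP70 of mitochondria, went from 147 to 316 CPM in T3 (log2 1.13 ± 0.24, adjusted p = 0.000425) and to 367 CPM in T5 (log2 0.20 ± 0.26 against T3, adjusted p = 0.747). Atf5, a transcription factor of the mitochondrial stress response, rose in T3 (log2 1.80 ± 0.21, adjusted p = 4.11e-07), but overlaps Nup62 and Il4i1. The cochaperone gene Hscb and the protease gene Spg7 fell, with log2 changes of −1.49 ± 0.25 and −1.115 ± 0.196, and Grpel1 and Afg3l2 rose.

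Of 21 genes of the cytosolic chaperonin TRiC, prefoldin and tubulin folding 7 rose and 3 fell in T3 against T0 (median 0.29), beside 15% and 22.9% of all genes. Neither edgeR nor DESeq2 called any in T5 against T3 (median −0.22), which is near the background of 1.28% higher and 0.888% lower, and 1 was lower at an unadjusted p under 0.05. Cct3, a TRiC subunit gene, rose from 55.2 to 138 CPM (log2 1.36 ± 0.23, adjusted p = 3.33e-05), and the prefoldin genes Pfdn2 (log2 1.525 ± 0.226) and Pfdn4 (log2 1.26 ± 0.20) rose as well. Uri1, a prefoldin-like gene, fell by 1.68 ± 0.23 on the log2 scale (adjusted p = 3.36e-06), as did Tbcd and Pdcl3. Pfdn2, Pfdn4, Tbcd and Pdcl3 overlap other genes. Among 22 genes of HSP90 clients 8 rose and 4 fell in T3 against T0 (median 0.45), beside 15% and 22.9% of all genes. From T3 to T5 edgeR called 2 lower (3 with DESeq2) and none higher, with a median of −0.38. Of all genes 0.888% were called lower and 1.28% higher there. At an unadjusted p under 0.05, 1 was higher and 7 were lower. The steroid receptor genes Nr3c2 and Esr1 fell in T3 (log2 −1.605 ± 0.22 and −1.46 ± 0.22), as did Igf1r (log2 −0.59 ± 0.21). Ahr, the aryl hydrocarbon receptor, rose from 14.7 to 143 CPM in T3 (log2 3.32 ± 0.28, adjusted p = 4.27e-09) and fell to 60.9 CPM in T5 (log2 −1.25 ± 0.29 against T3, adjusted p = 0.021), and Met rose in T3 (log2 1.68 ± 0.22).

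**Figure D5:**
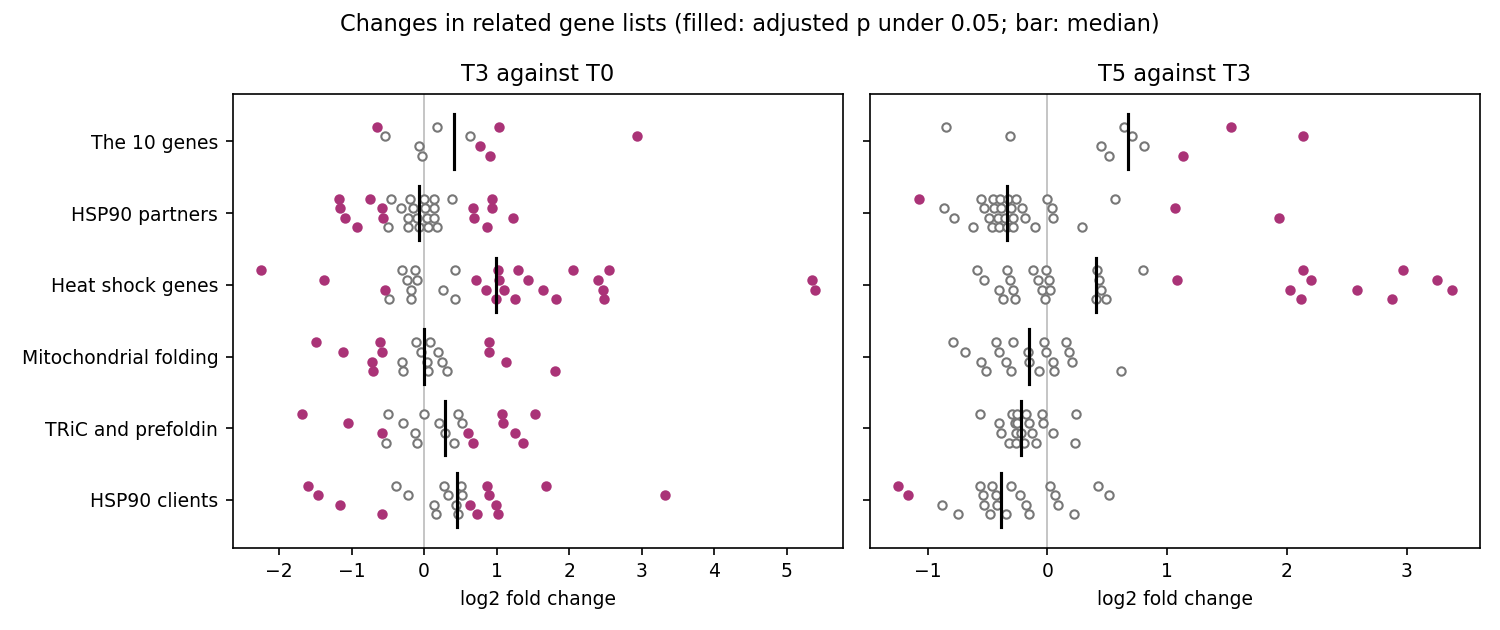
Log2 fold changes of the 10 genes and of 5 related lists in T3 against T0 (left) and T5 against T3 (right), 1 point a gene, filled where the adjusted p was under 0.05, with the median of each list as a bar. Heat shock genes reach the highest values in both panels, while the mitochondrial folding and TRiC lists hold no filled point on the right.

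By Pearson correlation of log2 CPM over 9 points (T5 by letter), taken among 6676 genes of at least 4 in mean log2 CPM, the genes most like Hsp90aa1 were Thoc6 (0.994), Cebpg (0.993), Jcad (0.993), Cystm1 (0.993) and Dnajb9 (0.9925). Those most like Hspd1 were Swt1 (0.9955), Hspe1 (0.9785), Hsph1 (0.978), Derl1 (0.978) and Plekhg3 (0.977). Among the 10 genes the correlation with Hsp90aa1 was 0.974 for Stip1, 0.94 for Hsp90ab1, 0.894 for Hspd1, 0.819 for Hspe1, 0.581 for Ahsa1, 0.499 for Chordc1, 0.212 for Cdc37, −0.333 for Fkbp4 and −0.681 for Trap1. The points fall into 3 groups, so the values mostly restate which groups were high.

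The cells were checked by markers. The 10 satellite cell markers were each at or above 1 CPM, with summed levels of 5197 to 7771 CPM in T0, 2424 to 3038 CPM in T3 and 1732 to 1954 CPM in T5, of which Pax7 made a large part in T0, with means of 3704, 315 and 319 CPM. In T3 against T0 5 of the 10 fell and 2 rose, Sdc4 (from a mean of 154 to 937 CPM) and Vcam1 (from 176 to 259 CPM). From T3 to T5 4 of the 10 fell and none was called higher by edgeR or DESeq2. Vcam1 was among those that fell, to a mean of 97.9 CPM (log2 −1.42 ± 0.265, adjusted p = 0.00327). Markers of other cells moved with the comparisons as well, and their part in the results was not tested. Beside all marker counts in this paragraph stand 15% of all genes called higher and 22.9% called lower in T3 against T0. In T5 against T3 these shares were 1.28% and 0.888%. Of 12 endothelial markers 6 rose in T3 against T0 and 6 fell in T5 against T3, with sums of 285 to 346, 489 to 586 and 264 to 330 CPM in T0, T3 and T5. Of 15 myofibre markers 10 rose and 2 fell in T3, and 6 fell from T3 to T5, with sums of 106 to 134, 108 to 152 and 69.4 to 87 CPM. The 2 that fell in T3, Actn3 and Atp2a1, had T0 means of 56.5 and 23.3 CPM and made a large part of the T0 sum. Sums of fibroblast-type markers were 897 to 1318, 476 to 802 and 537 to 761 CPM (2 of 12 higher and 3 lower in T3). The 3 that fell, Col3a1, Gsn and Dpt, had T0 means of 502, 425 and 130 CPM and made a large part of the T0 sum. The 2 that rose, Col1a1 and Col1a2, had T0 means of 6.96 and 4.94 CPM. Sums of Schwann cell markers were 997 to 1981, 1902 to 2815 and 1584 to 1871 CPM (2 of 7 higher, 2 lower in T3). Those of pericyte markers were 154 to 255, 132 to 218 and 135 to 155 CPM (1 of 8 higher, 3 lower in T3). Monocyte and macrophage markers added up to 20.9 to 54.6 CPM over all libraries (4 of 12 higher and 1 lower in T3), erythroid markers to 10.2 to 52.7 CPM (1 of 5 lower), neutrophil markers to 2.49 to 11.5 CPM and lymphocyte markers to 3.05 to 7.06 CPM, the last 2 with no call by edgeR or DESeq2. At an unadjusted p under 0.05, 1 of 5 lymphocyte and none of 5 neutrophil markers was lower in T3. In bulk samples fewer cells of a type and less RNA per cell cannot be told apart.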

How the data were processed

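RNA of fixed muscle stem cells was sequenced as 65-base single reads. The authors deposited raw read counts per gene for 48709 genes and 11 libraries, with the build GRCm38 and, among the tools in the submitters' processing notes, featureCounts 1.4.6-p3 of Subread, the aligner STAR (2.5.0a), DESeq2 1.12.3 and R 3.3.1. The annotation release, strand setting of the counting (the library kit was directional) and filters are not given in the sources used here. Gene IDs were matched to GENCODE vM21 (48349 matched, 360 did not). Columns were grouped by name, and replicates of T0 and T3 carry the column number, since it cannot be matched to the letters of the titles. T5 columns were added up by letter for tests and shown singly as levels. edgeR 4.0.16 (R 4.3.3) was run with TMM, filterByExpr, all groups in 1 fit and no covariate, after a check on simulated data. Ratios were tested with scipy 1.17.1. Alternatives were other scalings, DESeq2 1.42.0, no filter, single T5 libraries, 2-group fits, each replicate left out, a replicate block and no ribosomal RNA genes. Leaving out library A5 and using T5 libraries numbered 6 alone were chosen after seeing the data. Named genes are the 10 members, up to 4 genes a list with the smallest p in T3 against T0, called genes that go against their list, and the 5 genes most like Hsp90aa1 and Hspd1. A gene that this rule names among the HSP90 clients is not reported here. Called genes are those with an adjusted p under 0.05. The members and lists were chosen with earlier results of these data known. Hsp90b1 and Cacybp in T5 and the courses of the 4 HSP90 genes were singled out after their values were seen.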

Additional observations from a re-analysis of the deposited data

How the results depend on the processing

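The changes of Hsp90aa1, Hsp90ab1, Stip1 and Hspd1 in T3 against T0 and of Hspd1 and Hspe1 in T5 against T3 kept direction and call in every setting tried. Over all gene results and settings, 464 values kept both, 33 gained a call, 18 lost one and 15 changed sign, none of the last called in either fit. For values that moved the cause was not tested. The genes called in T5 against T3 over the whole table were 268 higher with DESeq2's size factors in edgeR, 456 lower with upper quartile factors, 688 lower with DESeq2, and 695 higher and 518 lower without the filter. They were 923 higher and 1199 lower with single T5 libraries, and 1348 and 1645 with T3 and T5 fitted alone. In T5 against T0, upper quartile factors gave 7144 higher. Of the 10 genes in T5 against T3, 6 were higher and 1 lower with upper quartile factors and with single T5 libraries, 7 and 1 with T3 and T5 alone, and 1 lower with DESeq2 or without the filter. In T3 against T0, 0 were lower with upper quartile factors, and 2 with single T5 libraries or without ribosomal RNA genes.

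Leaving out 1 replicate at a time gave 0 to 2 of the 10 genes lower in T3 against T0, and 2 to 6 higher and 0 to 1 lower in T5 against T3. Over the whole table it gave 143 (without T5 letter B) to 922 (without T0 replicate 3) higher and 41 to 1581 lower in T5 against T3, and 2531 to 8280 higher in T5 against T0, with the same libraries at the ends. Where a letter of T5 was left out, the lone sample was assumed to vary like the other groups. Some log2 changes that were not called crossed 0. In T3 against T0 leaving out 1 replicate gave −0.214 to 0.118 for Ahsa1, −0.224 to 0.028 for Chordc1 and −0.0284 to 0.364 for Cdc37, and in T5 against T0 it gave −0.341 to 0.0482 for Cdc37. Upper quartile factors gave 0.289 for Ahsa1 and 0.243 for Chordc1 in T3 against T0, and 0.253 for Cdc37 and 0.182 for Fkbp4 in T5 against T0, where the fit of these groups alone gave 0.0947 and 0.0211. The ratio of Hsp90aa1 to Hsp90ab1 stayed between 2.11 and 2.34 on the log2 scale in T3 against T0.

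Whether the replicate numbers of T0 and T3 pair the libraries is not known. Deviations from the group means correlated at −0.174, 0.222 and 0.229 for numbers 1 to 3. Of the 3 T0 libraries, 1 correlated best with its own number. Deviations from means of so few libraries depend on each other, so these values cannot settle it. With the replicate block, 4 of the 10 genes were higher and 0 lower in T3 against T0, and of all genes 4170 were higher and 6053 lower. T5 carries no such numbers. The 2 T5 replicates limit the tests of T5, and no setting varied the depth.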
